A study of Homo sapiens with 8 samples.

Results

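The ERBB family was described across spheres of 4 lung cancer lines: the receptor genes EGFR, ERBB2, ERBB3 and ERBB4, and the ligand genes AREG, EREG, BTC, HBEGF, TGFA and EGF. These 10 genes were taken by symbol from the 60106 genes of the count files, and all 10 passed the filter on low counts that left 24185 genes for testing. RNA was sequenced from pneumospheres, which are floating spheres of tumour cells, of the established non-small cell lung cancer lines H1975, H820, EBC1 and H23. The labels call H1975, H820 and H23 adenocarcinoma and EBC1 squamous cell carcinoma. Each line gave 1 library of spheres that had been given PD-L1s, which is soluble synthetic PD-L1, the immune checkpoint ligand (15 min in culture medium with no serum, at a dose of 25 µg/ml), and 1 library of untreated spheres, so there were 4 treated and 4 untreated libraries. All spheres were grown without serum in a medium that held fibroblast growth factor, B-27 supplement and epithelial growth factor, taken here to be EGF, the protein of a gene described here. There was 1 library per line and condition, and nothing in the labels says whether the spheres of a line came from separate cultures.

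ERBB receptors are tyrosine kinases of the cell surface that pair on binding a ligand. EGFR binds the EGF-type ligands, ERBB2 has no ligand of its own and serves as a partner, ERBB3 has a weak kinase and signals through its partners, and ERBB4 binds both neuregulins and part of the EGF-type ligands. The ligands are made as membrane proteins and cut free by ADAM proteases, and the receptors signal through RAS, ERK, PI3K and STAT proteins. In lung epithelium the pathway drives growth and repair, and EGFR is a main drug target in lung adenocarcinoma.

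Upstream sequences of the members were taken from RefSeq on build GRCh38.p14, in which 9 of the 10 members were matched. The 150 bases before the transcription start are shown for EREG, AREG and BTC, which neighbour each other on chromosome 4, for HBEGF and TGFA, which lie elsewhere, and for EGFR, the receptor that binds all 5. Capitals mark the 4 motifs searched on both strands, the GC box GGGCGG, the TATA box TATAAA, the cyclic AMP response element TGACGTCA and the AP-1 element TGANTCA, so that CCGCCC is a GC box on the other strand. EGFR and TGFA have 2 starts in the table, and the more upstream one is shown.
AREG, chr4:74444986-74445135, plus strand: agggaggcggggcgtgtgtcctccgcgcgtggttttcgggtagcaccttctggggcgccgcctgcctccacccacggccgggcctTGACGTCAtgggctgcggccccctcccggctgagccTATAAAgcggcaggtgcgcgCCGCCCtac
EREG, chr4:74364995-74365144, plus strand: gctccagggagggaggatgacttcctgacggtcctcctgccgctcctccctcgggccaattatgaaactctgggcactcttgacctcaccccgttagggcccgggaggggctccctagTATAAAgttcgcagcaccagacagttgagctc
BTC, chr4:74794524-74794673, minus strand: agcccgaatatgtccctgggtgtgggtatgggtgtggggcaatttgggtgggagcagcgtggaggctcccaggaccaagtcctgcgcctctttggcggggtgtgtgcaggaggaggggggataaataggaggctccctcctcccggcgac
HBEGF, chr5:140346604-140346753, minus strand: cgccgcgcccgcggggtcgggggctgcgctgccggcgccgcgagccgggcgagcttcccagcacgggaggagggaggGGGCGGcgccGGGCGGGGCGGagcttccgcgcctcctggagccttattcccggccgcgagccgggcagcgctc
TGFA, chr2:70553827-70553976, minus strand: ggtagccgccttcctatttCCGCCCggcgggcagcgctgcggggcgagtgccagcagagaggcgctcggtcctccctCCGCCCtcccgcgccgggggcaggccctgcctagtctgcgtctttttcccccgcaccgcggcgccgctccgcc
EGFR, chr7:55018867-55019016, plus strand: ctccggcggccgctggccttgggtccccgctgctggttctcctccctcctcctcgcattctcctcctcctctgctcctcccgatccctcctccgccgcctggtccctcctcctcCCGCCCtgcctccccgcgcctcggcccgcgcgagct

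AREG and EREG each held a TATA box, which began 29 and 32 bases before the start. AREG also held a cyclic AMP response element 65 bases before it, and a GC box 9 bases before it. BTC held none of the 4 motifs in this window. HBEGF held 3 GC boxes, of which the 2 nearest the start share 1 base, while TGFA held 2 and EGFR held 1. Background shares were taken over all 35116 promoters of the table, each running from 250 bases before the start to 50 after it. Of these, 45% held a GC box, 11.5% a TATA box, 1.85% a cyclic AMP response element and 7.71% an AP-1 element. At that greater length HBEGF held 5 GC boxes, TGFA 4, EGFR 3, AREG 1, BTC 1 and EREG 0. In windows of that same length the GC content was 75.3% for EGFR, 75.3% for TGFA and 75% for HBEGF, against 66.3% for AREG, 63% for BTC, 57.7% for EREG, 46.7% for EGF and a median of 58.7%. A match is a description of letters and not a measured binding site.

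Total counts ran from 5559870 to 27524854 per library, and the treated library was 4.67 times as deep as the untreated one in EBC1 and 4.28 times in H820. The summed level of 6 epithelial markers was 2972 to 4303 CPM (counts scaled for library size by TMM) in treated and 1878 to 3629 CPM in untreated H1975, H820 and EBC1. In H23 it was 145 CPM in treated and 146 CPM in untreated spheres, and CDH1 had 33 counts in treated and 50 in untreated spheres. The squamous marker list came to 6.14 CPM in treated and 6.72 CPM in untreated EBC1, where TP63 had 7 and 1 counts and KRT5 and KRT14 had 0 counts. TP63, KRT5 and KRT14 thus go against the squamous label of EBC1. SOX2, of the same list, averaged 6.16 CPM in EBC1 and 4.52 to 14.4 CPM in the other lines. Of the alveolar list, NKX2-1 averaged 0.112 CPM, SFTA3 0 CPM and KRT7 476 CPM in EBC1. H1975, labelled adenocarcinoma, had 1839 TP63 counts in treated and 1997 in untreated spheres. It averaged 76.8 CPM of NKX2-1, 15.9 CPM of SFTA3, 577 CPM of KRT7 and 0.0454 CPM of KRT5. The 2 libraries of H1975 differed in KRT6A, with 119 counts in treated and 2 in untreated spheres. DSG3 had 23 and 3 counts and KRT14 had 3 and 1 counts in treated and untreated H1975. These lists do not settle the type of either line. EBC1 is called by its line name throughout. The immune list, which holds CD68, a gene that tumour cells can also express, summed to 8.05 to 160 CPM in treated and 6.42 to 151 CPM in untreated libraries. It had at most 8 counts of PTPRC and at most 1 count of CD3E. Other genes of the list were highest in a single line. In H1975, CSF1R had 481 counts in treated and 521 in untreated spheres, and CD14 had 99 and 140 counts. CD14 averaged 5.39 CPM in H1975, 1.30 CPM in H23 and 1.15 CPM in H820. LYZ averaged 2.54 CPM in H820. The fibroblast list summed to 26.9 to 54.0 CPM in treated and 19.6 to 57.8 CPM in untreated libraries, and the endothelial list to 0.403 to 11.2 CPM in treated and 0.192 to 11.5 CPM in untreated libraries.

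The receptor genes differed widely between lines, and H1975 and H820 held the most receptor RNA. EGFR lies on chromosome 7 (GRCh37, 55086714 to 55279321, plus strand), ERBB2 on chromosome 17 (37844167 to 37884915, plus strand), ERBB3 on chromosome 12 (56473645 to 56497289, plus strand) and ERBB4 on chromosome 2 (212240442 to 213403565, minus strand). EGFR had 569.8 CPM in treated and 565 CPM in untreated H1975, 272 and 223 CPM in treated and untreated H820, 262 and 246 CPM in treated and untreated EBC1, and 57.0 and 52.9 CPM in treated and untreated H23. Both H1975 libraries stood above the other lines, both H23 libraries stood below them, and EBC1 and H820 overlapped. EGFR was 10.3-fold higher in H1975 than in H23 (log2 difference 3.37 ± 0.175 SE, edgeR adjusted p = 9.5e-12), and EBC1 and H820 did not differ beyond their spread (log2 0.04 ± 0.160, EBC1 over H820, edgeR adjusted p = 0.861). These tests rest on 2 libraries per line, 1 treated and 1 untreated, which are not replicates of a condition. Their errors come from how treated and untreated libraries differ beyond a shared treatment effect, pooled over the 4 lines. They do not come from separate tumours. In bulk RNA, fewer cells expressing a gene and less RNA per cell cannot be told apart.

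ERBB2, the partner receptor without a ligand, had the narrowest range of the members. It had 165 CPM in treated and 168 CPM in untreated H1975, 175 and 128 CPM in treated and untreated H820, 122 and 90.7 CPM in treated and untreated EBC1, and 49.3 and 47.2 CPM in treated and untreated H23. The 2 libraries of H820 lay on either side of H1975, and these lines did not differ beyond their spread (log2 0.15 ± 0.161, H1975 over H820, edgeR adjusted p = 0.449). H1975 stood 3.46-fold above H23 (edgeR adjusted p = 2.9e-08). H820 stood above EBC1 by log2 0.51 ± 0.163 (edgeR adjusted p = 0.0127), a call that was lost without the untreated EBC1 library (log2 0.27, adjusted p = 0.278) or the treated H820 library (log2 0.32, adjusted p = 0.111). H1975 stood above EBC1 by log2 0.66 ± 0.162 (edgeR adjusted p = 0.00216), and this call was lost without the untreated library of EBC1 (adjusted p = 0.0651) or of H1975 (adjusted p = 0.103). ERBB3, the receptor with a weak kinase, was highest in H820. It had 350.5 CPM in treated and 237 CPM in untreated H820, 216 and 206 CPM in treated and untreated H1975, 52.1 and 45.3 CPM in treated and untreated EBC1, and 10.2 and 10.8 CPM in treated and untreated H23. All 6 pairs of lines differed in ERBB3, and the step from H820 to H23 was 27.5-fold (log2 4.78 ± 0.198, edgeR adjusted p = 4.8e-13). The smallest step, H820 over H1975 (log2 0.46 ± 0.165, edgeR adjusted p = 0.0252), was lost on leaving out either EBC1 library, either H1975 library or the treated H820 library (edgeR adjusted p between 0.0542 and 0.37), and with no filter on low counts (log2 -0.41 as H1975 over H820, adjusted p = 0.0977).

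ERBB4 ran the other way. This receptor for neuregulins had 2.51 CPM in treated and 3.53 CPM in untreated H23, and 1.90 and 3.05 CPM in treated and untreated H820. In EBC1 it had 5 counts in treated and 1 count in untreated spheres, and in H1975 it had 2 counts in treated and 3 in untreated spheres. From summed counts, H23 stood 27.2-fold above H1975, with a 95% counting interval of 11.4 to 85.0 (138 against 5 counts). H23 and H820 did not differ beyond their spread (log2 0.32 ± 0.359, H23 over H820, edgeR adjusted p = 0.462), nor did EBC1 and H1975 at these few counts (log2 1.07 ± 0.882, EBC1 over H1975, edgeR adjusted p = 0.33).

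**Figure D1:**
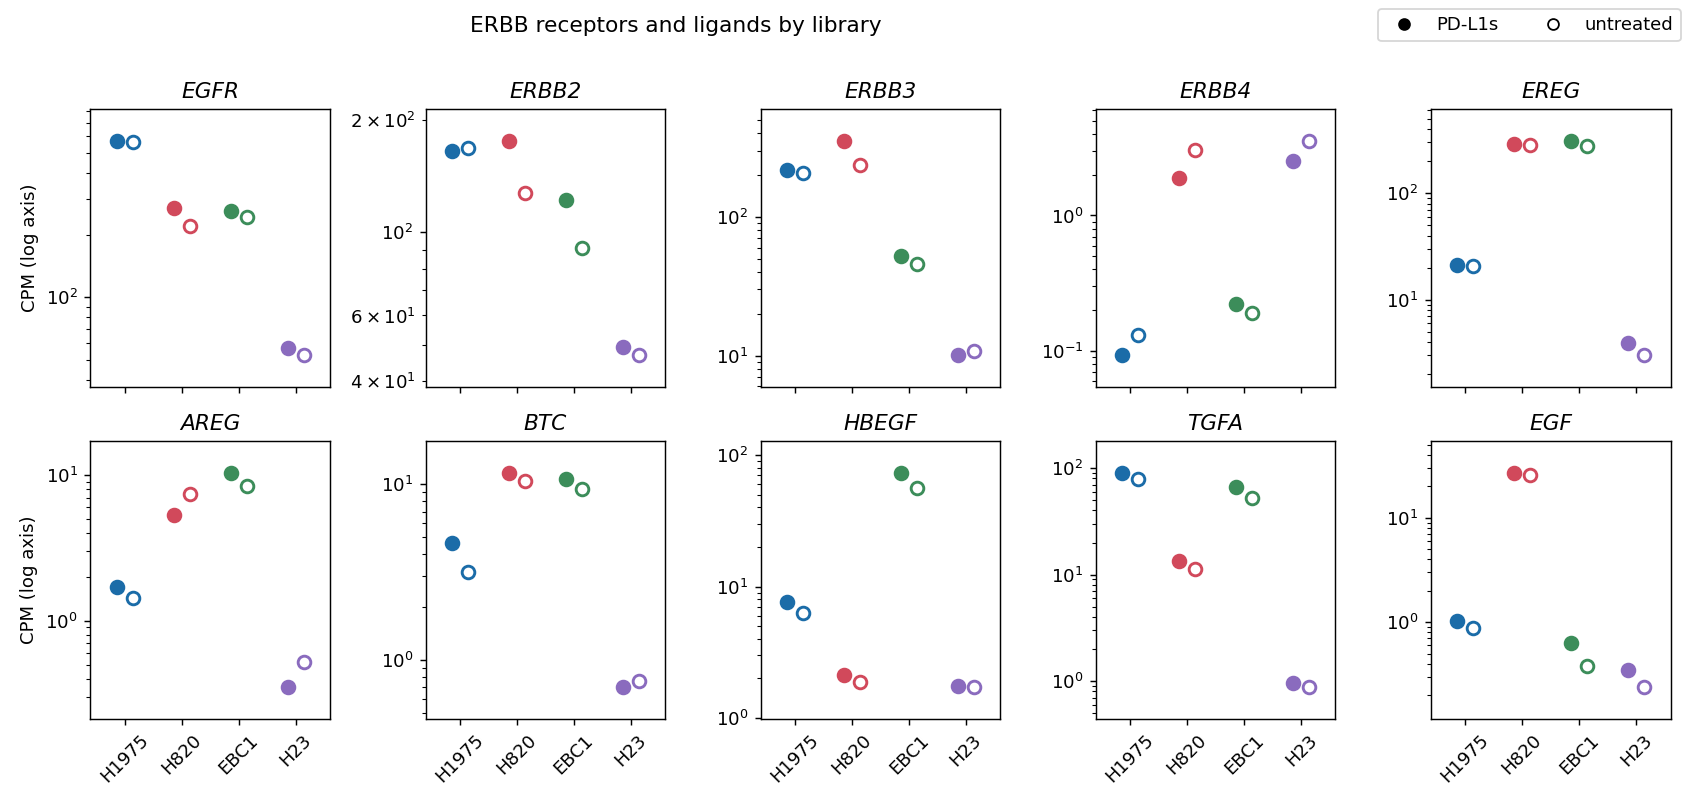
CPM of each member on a log axis, with 1 point per library and PD-L1s (filled) beside untreated (open) for each line. On this TMM-scaled axis both H23 libraries lie below all others for 9 of the 10 genes (for HBEGF and EGF not in TPM). The share of all genes with that order was not counted. For ERBB4 the H23 libraries had 2.51 CPM (PD-L1s) and 3.53 CPM (untreated).

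EREG, AREG and BTC, which encode epiregulin, amphiregulin and betacellulin, lie in this order on chromosome 4 (GRCh37, 75230860 to 75254468 and 75310851 to 75320726 on the plus strand, and 75669969 to 75719896 on the minus strand). These are the 3 neighbouring ligands whose upstream sequences are printed above. EREG had 309 CPM in treated and 280.3 CPM in untreated EBC1, 292 and 284 CPM in treated and untreated H820, 21.3 and 20.7 CPM in treated and untreated H1975, and 3.92 and 3.05 CPM in treated and untreated H23. The levels fell into 3 steps, with EBC1 and H820 overlapping at the top (log2 0.03 ± 0.151, EBC1 over H820, edgeR adjusted p = 0.892). EBC1 stood 84.8-fold above H23 (log2 6.41 ± 0.199, edgeR adjusted p = 2.5e-14), and H820 stood 13.7-fold above H1975 (edgeR adjusted p = 2.8e-12).

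AREG followed the same order of lines. It had 10.3 CPM in treated and 8.45 CPM in untreated EBC1, 5.30 and 7.45 CPM in treated and untreated H820, 1.70 and 1.44 CPM in treated and untreated H1975, and 0.352 and 0.522 CPM in treated and untreated H23. EBC1 stood 21.3-fold above H23 (log2 4.42 ± 0.361, edgeR adjusted p = 5.9e-09), whereas EBC1 over H820 missed the threshold (log2 0.65 ± 0.281, edgeR adjusted p = 0.0592). That pair passed without the untreated library of EBC1 (edgeR adjusted p = 0.0282) or of H820 (adjusted p = 0.00694). GRCh37 carries a near-identical copy, AREGB, and reads that fit both can fall on either, so AREG counts are uncertain. AREGB took 0 to 30% of the counts of the pair, and the sum was 11.1 CPM in treated and 8.65 CPM in untreated EBC1, against 0.503 and 0.642 CPM in treated and untreated H23.

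BTC had 11.6 CPM in treated and 10.5 CPM in untreated H820, 10.8 and 9.41 CPM in treated and untreated EBC1, 4.62 and 3.19 CPM in treated and untreated H1975, and 0.704 and 0.763 CPM in treated and untreated H23. H820 and EBC1 overlapped (log2 0.13 ± 0.229, H820 over EBC1, edgeR adjusted p = 0.669), and H820 stood 14.7-fold above H23 (log2 3.87 ± 0.287, edgeR adjusted p = 1.7e-09). All 3 ligands of this stretch were thus called lower in H23 than in each other line and lower in H1975 than in EBC1 and H820.

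The other ligands each had their own leading line. HBEGF lies on chromosome 5 (GRCh37, 139712428 to 139726216, minus strand), TGFA on chromosome 2 (70674412 to 70781147, minus strand) and EGF on chromosome 4 (110834040 to 110933422, plus strand). HBEGF, the heparin-binding ligand, had 72.6 CPM in treated and 56.1 CPM in untreated EBC1, against 7.59 and 6.33 CPM in treated and untreated H1975. It had 2.14 CPM in treated and 1.86 CPM in untreated H820, and 1.76 and 1.73 CPM in treated and untreated H23. HBEGF was 36.4-fold higher in EBC1 than in H23 (log2 5.19 ± 0.20, edgeR adjusted p = 2e-13), and H820 and H23 did not differ beyond their spread (log2 0.17 ± 0.265, H820 over H23, edgeR adjusted p = 0.634). TGFA encodes transforming growth factor alpha, which binds EGFR. It had 89.3 CPM in treated and 78.7 CPM in untreated H1975, 67.2 and 52.5 CPM in treated and untreated EBC1, 13.5 and 11.3 CPM in treated and untreated H820, and 0.955 and 0.883 CPM in treated and untreated H23. No pair of lines overlapped, and all 6 pairs were called, with the widest fold of the members at 90.4 for H1975 over H23 (log2 6.50 ± 0.206, edgeR adjusted p = 3.1e-14). The step of H1975 over EBC1 (log2 0.49 ± 0.145, edgeR adjusted p = 0.00783) was lost when the untreated library of EBC1 or either library of H1975 was left out (edgeR adjusted p = 0.111, 0.142 and 0.0605). EGF, the founding ligand, was high in a single line. It had 26.7 CPM in treated and 25.9 CPM in untreated H820, and at most 1.04 CPM in the other 6 libraries, with 2 to 22 counts each. H820 stood 87.7-fold above H23 (log2 6.45 ± 0.308, edgeR adjusted p = 3.5e-12), and among the 3 lower lines EGF was higher in H1975 than in H23 (log2 1.68 ± 0.422, edgeR adjusted p = 0.00203). The steps between neighbours missed the threshold (edgeR adjusted p = 0.139 for H1975 over EBC1 and 0.14 for EBC1 over H23).

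The share of members called must be read against the share of all genes called, since the lines differed in most of the transcriptome. Of the 10 members, 9 were called between H1975 and H820, where 54.5% of all genes were. The counts were 8 for H1975 over EBC1 (52.6% of all genes), 10 for H1975 over H23 (62.6%), 6 for H820 over EBC1 (55.7%), 8 for H820 over H23 (58.9%) and 9 for EBC1 over H23 (61.3%). The count for H820 over EBC1 is near its background, and the others are above theirs, with no test of that excess. Called genes split into 7450 higher and 7700 lower in H1975 than in H23, 7048 and 7207 in H820 than in H23, and 6837 and 7986 in EBC1 than in H23. Without TMM scaling the splits were 5565 and 10414, 5352 and 10036, and 4264 and 12020, and the median of all genes shifted by log2 -0.38, -0.36 and -0.56 in these pairs. In TMM-scaled CPM, both H23 libraries lay below every other library for 9 of the 10 members. The share of all genes with that order was not counted, so this count has no background beside it. For HBEGF and EGF this depends on the scale. HBEGF averaged 1.24 TPM in H820 and 1.61 TPM in H23, and its log2 difference of H820 over H23 was -0.22 without TMM scaling (0.17 with it). EGF averaged 0.130 TPM in EBC1 and 0.135 TPM in H23. H23 was also the line with the lowest epithelial marker sum. The part of those markers in the result was not tested.

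Per length, the mix of receptors and ligands was different in each line. In TPM, which divides counts by exonic length, the 4 receptors summed to 166 ± 2.04 in H1975, 130.5 ± 22.1 in H820, 60.5 ± 1.30 in EBC1 and 33.2 ± 3.46 in H23 (mean ± SD, n = 2 libraries each). EGFR made up 46.4% of receptor TPM in H1975 and 47.1% in EBC1, ERBB3 led in H820 with 44.5%, and ERBB2 led in H23 with 56.7%. The spread in H820 came from its libraries, which held 146 TPM in treated and 115 TPM in untreated spheres. The 6 ligands summed to 145 ± 2.55 TPM in EBC1, 119 ± 5.65 TPM in H820, 42.7 ± 3.06 TPM in H1975 and 5.19 ± 0.535 TPM in H23. EREG was the most abundant ligand in H820 (77.7% of ligand TPM) and EBC1 (55.9%), and TGFA was in H1975 (62.9%). In H23, EREG had 35.5% in treated and 28.6% in untreated spheres and HBEGF had 30.8% in treated and 31.3% in untreated spheres, so neither led in both libraries. HBEGF came second in EBC1 with 23.5%. Ligand RNA thus exceeded receptor RNA on this scale in EBC1, in both of its libraries, and was below it in both libraries of H1975 and of H23. The libraries of H820 differed in this, with 115 TPM of ligands and 146 TPM of receptors in treated spheres and 123 TPM of ligands and 115 TPM of receptors in untreated spheres.

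**Figure D2:**
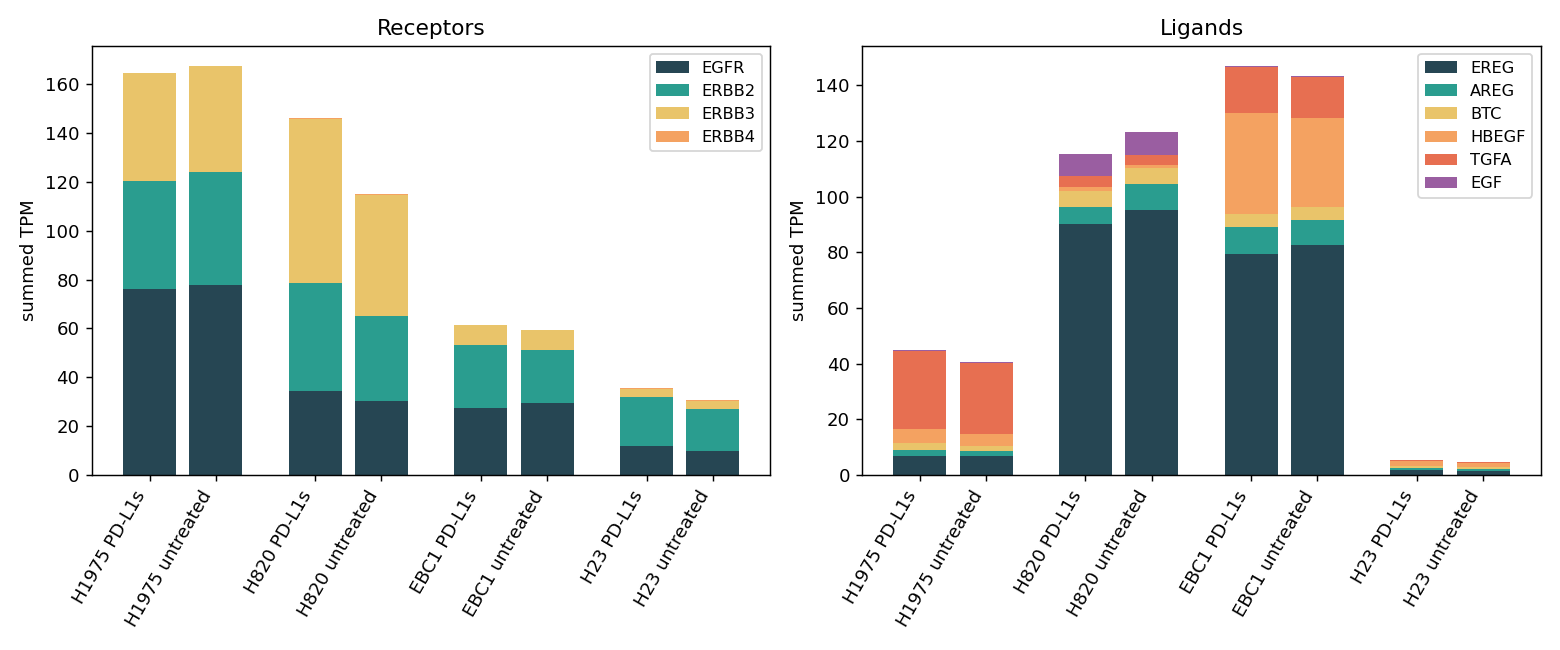
Summed TPM of the receptors (left) and ligands (right) in each library, with PD-L1s left of untreated for each line and the genes stacked. EREG fills most of the ligand bar in H820 and EBC1 and TGFA in H1975, while both H23 bars stay at 5.57 TPM or less for the ligands.

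The genes around each member were measured in the pair of its highest and lowest line, taking the 3 tested protein-coding neighbours on each side. As background, of 24185 genes tested, 7450 were called higher and 7700 lower in H1975 than in H23. In H820 over H23 7048 were called higher, and in EBC1 over H23 6837. The neighbour counts were not tested against these shares. For TGFA, 0 of its 6 neighbours were called higher in H1975 than in H23. Their log2 differences ran from -7.00 to -0.63 beside 6.50 for TGFA. ERBB3 and HBEGF each had 2 of 6 neighbours called in their direction, with log2 differences of at most 1.04 and 0.62. EGFR had 4 of 6, among them SEC61G, a subunit of the protein translocation channel, at log2 1.59 and VOPP1 at log2 2.27. These genes lie 259 kb from EGFR on either side, while LANCL2 between EGFR and VOPP1 was at -0.10 (edgeR adjusted p = 0.676, H1975 over H23). COBL and GRB10, also among the 4, lie 3702 and 4226 kb from EGFR. ERBB2 had 3 of 6, with GRB7, an adaptor that binds it, at log2 3.38, 9 kb away, and MIEN1, which lies between them, at -0.07 (edgeR adjusted p = 0.745, H1975 over H23).

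In the ligand stretch of chromosome 4, EREG had 5 of 6 neighbours called in its direction for EBC1 over H23, and these include AREG, AREGB and BTC. CXCL2, a chemokine that attracts neutrophils, lies 266 kb from EREG and was at log2 6.06 (55.8 CPM in EBC1 and 0.819 CPM in H23). EPGN, the gene for the related ligand epigen, lies 50 kb from EREG and was not called (log2 -1.41, edgeR adjusted p = 0.137), with a mean of 0.134 CPM in EBC1 and 0.573 CPM in H23. PARM1, on the far side of BTC, was at log2 6.18 in H820 over H23 but at 0.30 in EBC1 over H23 (edgeR adjusted p = 0.516). EGF had 3 of 6, and ERBB4 had 4 of 6 for H23 over H1975. Exons of ERBB3 share 31 bases on the same strand with the gene RP11-603J24.9, which is 0.417% of the exonic length of ERBB3, and no other member shares exonic bases with a gene of its own strand.

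**Figure D3:**
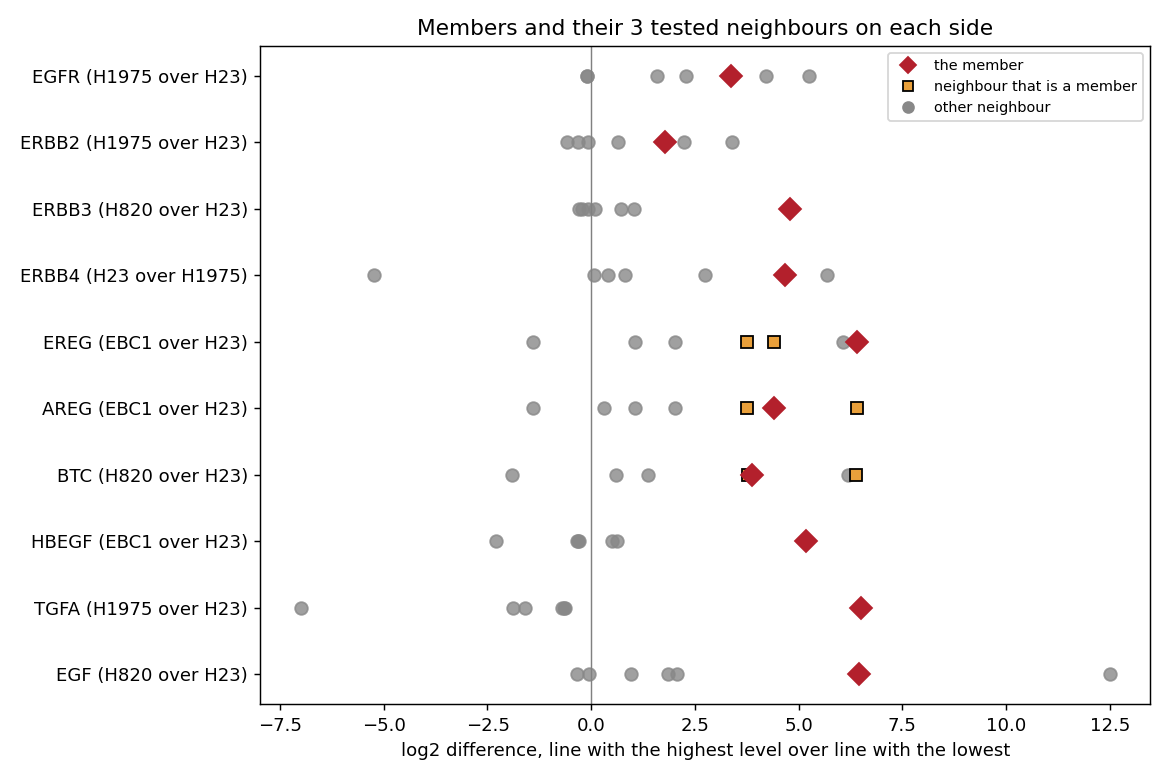
Fitted log2 difference between the line with the highest and the line with the lowest level, for each member (diamonds) and its 6 tested neighbours (squares where the neighbour is itself a member, otherwise circles). For TGFA all 6 neighbours lie below 0, and for EREG, AREG and BTC the neighbouring members lie between 3.75 and 6.41.

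The rest of the pathway was set against the same background. Over the 6 pairs of lines, 1 to 2 of the 3 other ligands tested, 3 to 7 of the 8 sheddases and iRhoms, 5 to 8 of the 9 receptor inhibitors, 11 to 14 of the 20 adaptors and effectors and 7 to 10 of the 10 ERK output genes were called, where 52.6 to 62.6% of all genes were. The counts of adaptors, inhibitors and sheddases lie on both sides of that background or near it, and nothing particular to these lists is read from them. NRG1, a neuregulin that binds ERBB3 and ERBB4, had 13.8 CPM in treated and 14.5 CPM in untreated H1975 and 1.25 and 0.508 CPM in treated and untreated H820. NRG2, another neuregulin, was highest in H23, with 9.10 CPM in treated and 9.44 CPM in untreated spheres. ADAM10, a main protease that sheds EGF-type ligands, was present in all 8 libraries at 138 to 223 CPM. CBLC, a ubiquitin ligase that downregulates EGFR, had 129 CPM in treated and 108 CPM in untreated H820 and 0 counts in both EBC1 libraries.

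SPRY4, DUSP6 and ETV5 are genes that ERK signalling turns on. SPRY4 had 153 CPM in treated and 157 CPM in untreated H23, and 5.48 to 16.7 CPM in the other 6 libraries. ETV5 had 122 CPM in treated and 127 CPM in untreated H23, and 17.4 to 51.5 CPM in the others. DUSP6 had 165 and 127 CPM in treated and untreated H23, 157 and 116 CPM in treated and untreated EBC1, and 14.7 to 24.7 CPM in H820 and H1975. EPHA4, an ephrin receptor gene of the same list, was highest in H820, with 4.46 CPM in treated and 3.39 CPM in untreated spheres, and had 1 count in treated and 2 counts in untreated H23. By mean CPM, H23 was the highest line for 6 of the 10 genes of the list (SPRY2, SPRY4, DUSP6, CCND1, ETV4 and ETV5). For DUSP6 the libraries of H23 and EBC1 overlapped. PHLDA1 was highest in EBC1. H23 was the lowest line for EPHA4, DUSP4 and EPHA2. For EPHA2 this place depends on the scale, since in TPM it was lowest in H820 (11.5 TPM in H820 and 16.5 TPM in H23). The share of all genes that were highest or lowest in H23 was not counted, so these counts have no background beside them. SPRY2, CCND1, ETV4, DUSP4 and PHLDA1 are named to complete the list, after their values were seen. ERRFI1, an inhibitor that binds EGFR, had 490 to 997 CPM in 7 libraries and 267 CPM in untreated H820.

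Treated and untreated spheres of the same lines were then compared. None of the 10 members was called over the 4 lines, where 9 of 24185 genes (0.0372%) were (edgeR quasi-likelihood test, Benjamini-Hochberg adjustment). None of them had an unadjusted p under 0.05, and 873 of all genes did, and DESeq2 and limma also called 0 members. Of the 10 log2 changes 8 were above 0, with a median of 0.18, beside 14496 of 24185 above 0 and a median of 0.04 over all genes tested. The 6 epithelial markers were all above 0 in the same comparison, with a median of 0.20, and their part in the member values was not tested. TGFA was at 0.25 ± 0.120 (log2 ± SE, unadjusted p = 0.0524) and was higher in 4 of 4 lines. ERBB2 was at 0.23 ± 0.115 (unadjusted p = 0.0639) and was higher in 3 of 4 lines. HBEGF was at 0.26 ± 0.141 (unadjusted p = 0.0797) and was higher in 4 of 4 lines. These are edgeR values, and the adjusted p was 0.9995 for every member.

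EGFR was at 0.12 ± 0.114, ERBB3 at 0.20 ± 0.122, EREG at 0.12 ± 0.115, BTC at 0.24 ± 0.181 and EGF at 0.17 ± 0.224 on the log2 scale. AREG was at -0.06 ± 0.231 and ERBB4 at -0.52 ± 0.333. ERBB4, AREG and EGF had the largest errors of the members, and the cause of the missing calls was not tested. Of the 50 tested genes of the 5 other pathway lists, 0 were called by edgeR, and only the sheddase ADAM15 had an unadjusted p under 0.05. ADAM15 was at log2 0.31 ± 0.130 (edgeR unadjusted p = 0.0276, adjusted p = 0.9995), higher in 3 of 4 lines.

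Ratios within a single line have no replicates behind them. No member passed 2-fold in any line. Among genes with at least 50 counts in either library, 0.166% did in H1975, 4.97% in H820, 1.32% in EBC1 and 0.246% in H23. Members were taken at any count, so the 2 sets are not alike. The prior count of 5 pulls ratios of a few counts towards 0. A member such as ERBB4 in H1975, with 2 counts in treated and 3 in untreated spheres, could thus hardly pass. In H820, ERBB3 had a log2 ratio of 0.56 (95% counting interval 0.48 to 0.65), ERBB2 0.46 (0.35 to 0.57) and EGFR 0.29 (0.20 to 0.38), while EREG was at 0.04 (-0.04 to 0.12). In EBC1, all 10 ratios were above 0, from 0.08 for ERBB4, which had few counts there, to 0.42 for ERBB2, with a median of 0.23. Over all genes tested, 14211 of 24185 ratios were above 0 in EBC1, with a median of 0.08. Without TMM scaling EGFR was at -0.03 in EBC1, and in H820 EREG was at -0.19, EGFR at 0.06, ERBB2 at 0.23 and ERBB3 at 0.33. In H1975, EGFR was at 0.01 (-0.02 to 0.05) and BTC at 0.51 (0.08 to 0.99). The intervals cover counting error only. H820 and EBC1 are the lines whose treated library was over 4 times as deep, and the part of depth in these ratios was not tested.

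**Figure D4:**
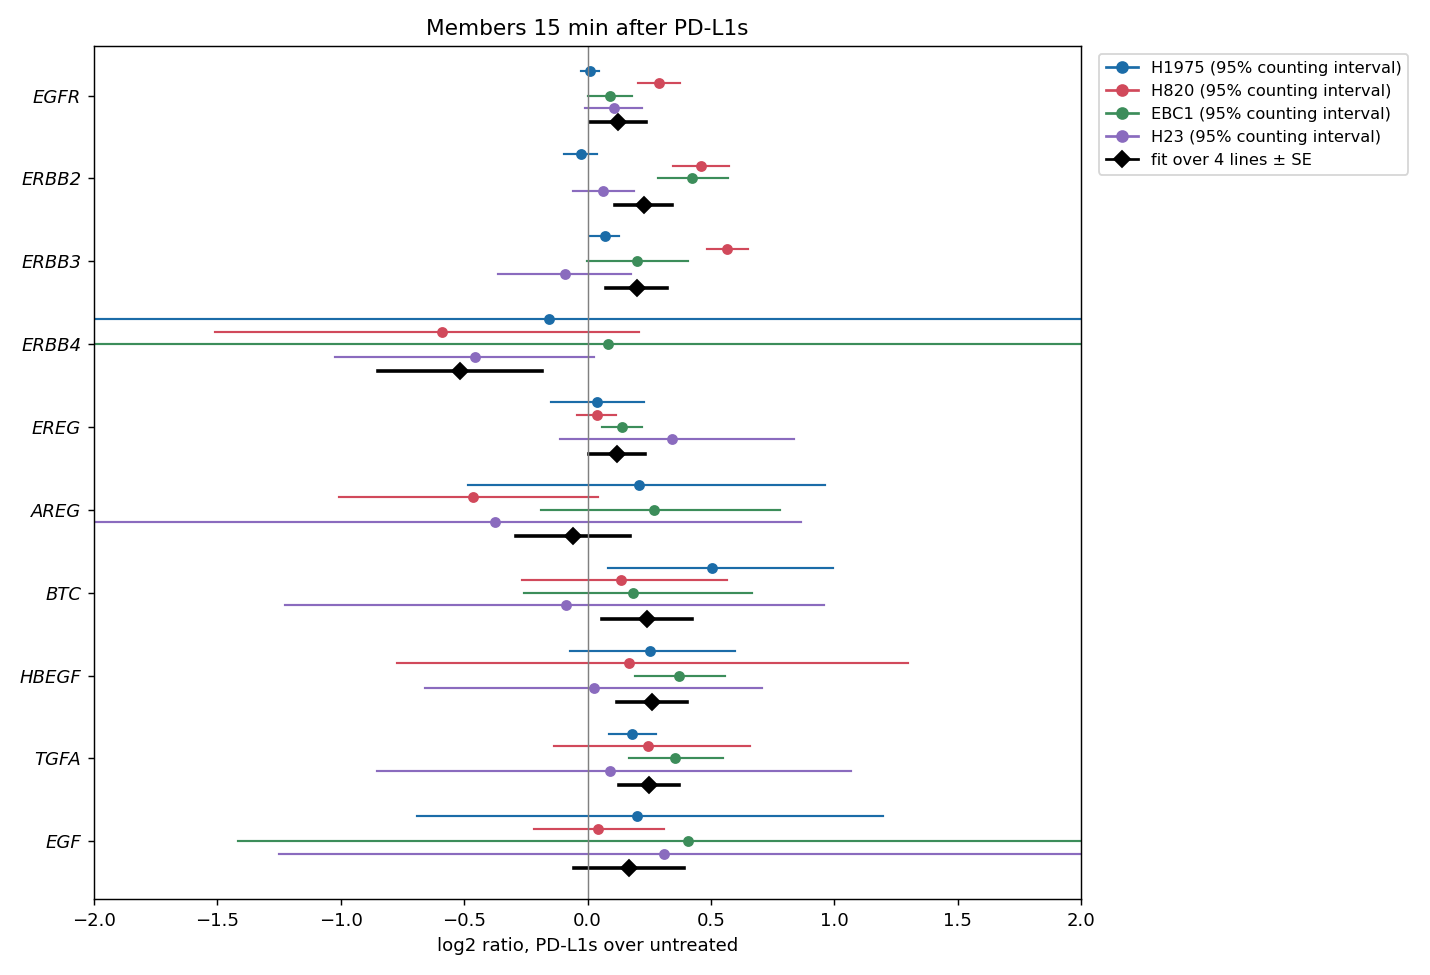
Log2 ratio of PD-L1s over untreated for each member and line (circles, with 95% counting intervals, cut at the edge of the axis where wider), and the edgeR estimate over the 4 lines (black diamonds ± SE). The estimates lie between -0.52 for ERBB4 and 0.26 for HBEGF, and the receptor points of H820 lie to the right of those of H1975 except for ERBB4.

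Whether a line responded differently from the other lines was tested as an interaction. No member was called in any of the 4 tests, in which edgeR called 0.0165% of genes for H1975, 2.99% for H820, 0.0124% for EBC1 and 0.0207% for H23. In each test the line gave a single pair of libraries, with the error taken from the other 3 lines. The only unadjusted p under 0.05 among the members was that of ERBB3 in H820 (log2 0.50 ± 0.187, unadjusted p = 0.0122, edgeR adjusted p = 0.177). It was called when EBC1 was left out (log2 0.48, edgeR adjusted p = 0.0173), with 2088 genes then called in place of 724.

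In H820 the test called 6 of the 50 other pathway genes, beside 2.99% of all genes. They are named because they passed, after their values were seen. ERRFI1, the EGFR inhibitor, had 844 CPM in treated and 267 CPM in untreated H820, against 689 and 683 CPM in treated and untreated H1975, 997 and 973 CPM in treated and untreated EBC1, and 490 and 556 CPM in treated and untreated H23. The untreated H820 library was the low one, and the treated H820 library lay within the range of the other lines. ERRFI1 differed in response by log2 1.70 ± 0.190 (edgeR adjusted p = 4.3e-07). DUSP6, the phosphatase that turns off ERK, went the other way, with 14.7 CPM in treated and 22.2 CPM in untreated H820. It was higher in treated spheres of the 3 other lines, by a log2 ratio of 0.49 in H1975, 0.43 in EBC1 and 0.37 in H23, and the difference in response was log2 -1.03 ± 0.223 (edgeR adjusted p = 0.006).

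ERRFI1 and DUSP6 stayed called under each alternative run for them. The other 4 genes rose in H820 relative to the other lines by less, and each lost its call without TMM scaling, without H23, without H1975, or with a minimum of 50 counts. The sheddase ADAM9 had 883 CPM in treated and 553 CPM in untreated H820 (difference in response log2 0.68 ± 0.181, edgeR adjusted p = 0.0317). The sheddase ADAM10 had 223 CPM in treated and 142 CPM in untreated H820 (log2 0.65 ± 0.180, edgeR adjusted p = 0.0401). STAT3, a transcription factor downstream of the receptors, had 326 and 195 CPM in treated and untreated H820 (log2 0.72 ± 0.186, edgeR adjusted p = 0.0271). MAP2K1, the kinase that activates ERK, had 74.1 and 42.2 CPM in treated and untreated H820 (log2 0.75 ± 0.210, edgeR adjusted p = 0.0414). The epithelial marker sum moved in the same pair of libraries, with 2972 CPM in treated and 1878 CPM in untreated H820 and all 6 markers higher in the treated library (median log2 ratio 0.46). The mitochondrial share of counts was 2.47% in treated and 4.07% in untreated H820, and the treated library was 4.28 times as deep. The part of these features in the 6 calls was not tested.

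**Figure D5:**
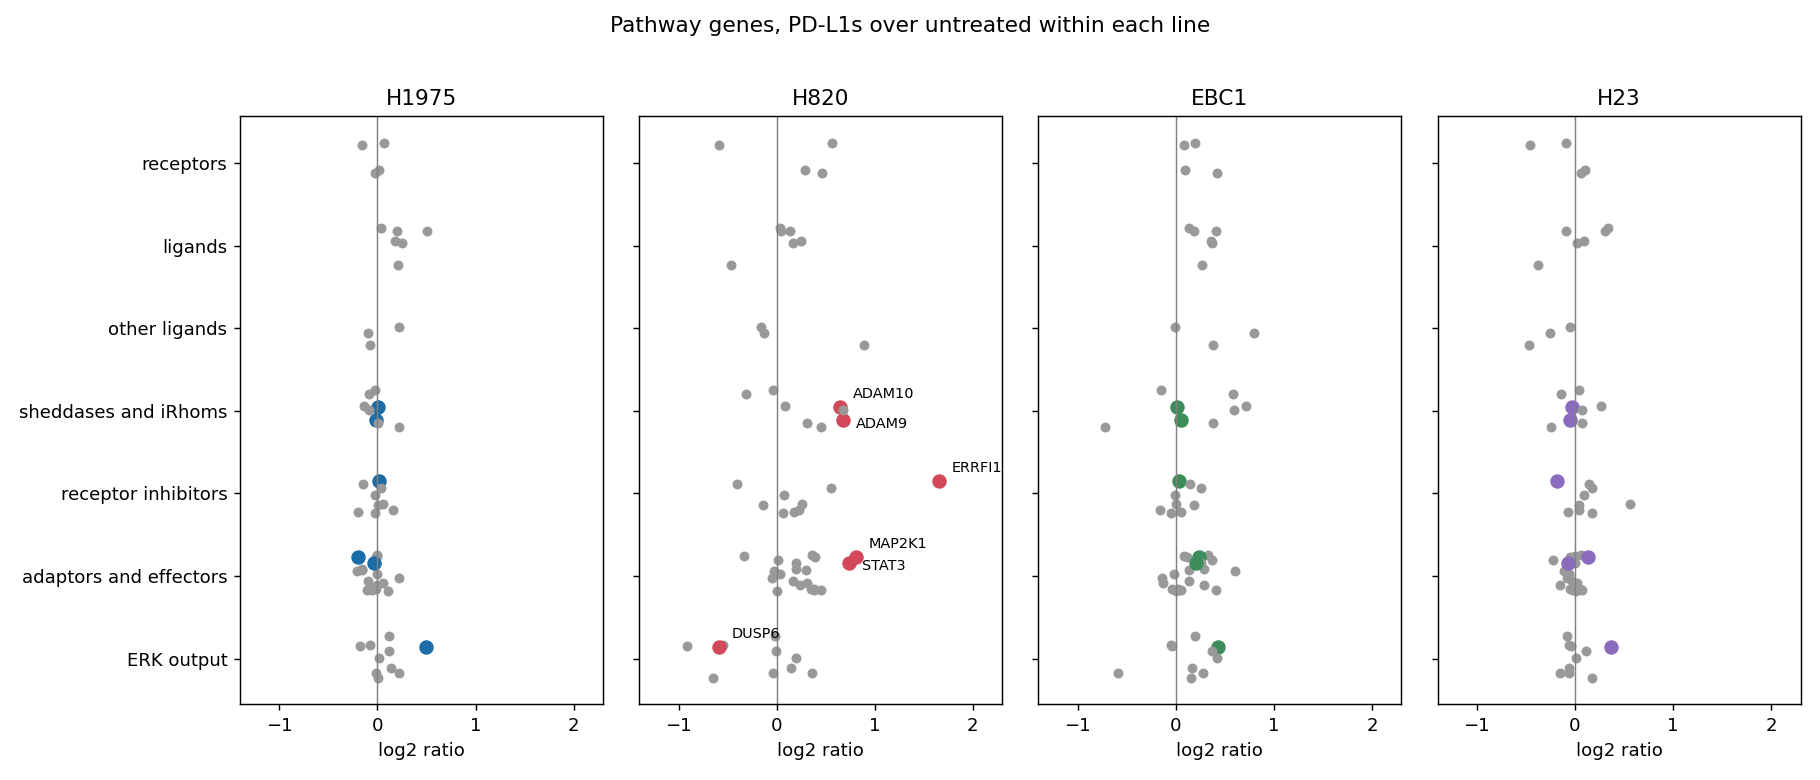
Log2 ratio of PD-L1s over untreated within each line for the members and the other pathway lists (1 point per gene, vertical scatter arbitrary), with the 6 genes whose response differed in H820 in colour in every panel. ERRFI1 stands at 1.66 in H820 and between -0.18 and 0.03 in the other lines, and DUSP6 is below 0 in H820 alone among the 4 lines.

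Genes with the most similar pattern were sought among 13637 genes by Pearson r of log2 CPM over the 8 libraries. The libraries of a line share their cells, so r rests on 4 lines, and 3 to 35 genes passed an r of 0.99 for a given member. EGFR was most like PLXNA3 (r = 0.998) and FAM126A (r = 0.997), and ERBB3 was most like CASP10 and ARHGAP42 (both r = 0.998). EREG was most like MACC1 (r = 0.997) and DMRTA1 (r = 0.996), and AREG most like SNTB1 and MEGF9 (both r = 0.996). BTC was most like ZC3H12A and the chemokine gene CXCL8 (both r = 0.993). TGFA was most like ABLIM3 (r = 0.998) and FCF1 (r = 0.997), HBEGF most like PPP1R14B and FRMD6 (both r = 0.996), EGF most like PSCA (r = 0.997) and FAM83E (r = 0.996), and ERBB2 most like HLA-DMA (r = 0.995) and ELOVL6 (r = 0.991).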

How the data were processed

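Gene counts of 8 libraries, as deposited, were read from 1 file per library. The labels' protocols name the Maxwell RSC for RNA extraction, and libraries were made with an Illumina stranded total RNA kit with Ribo-Zero Plus depletion. Per the submitters' processing notes, STAR 2.7.3a and Subread 2.0.0 were used. Per the file headers, the authors' counts came from featureCounts 2.0.0 on GENCODE 28 lifted to GRCh37, reverse-stranded, primary alignments with mapping quality of at least 1, with pairs that overlap several genes counted for each of them. The deposited files also give each gene's exonic length, from which TPM was computed.

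Counts were scaled by TMM, filtered with filterByExpr at a minimum count of 10 and tested with the quasi-likelihood F test of edgeR 4.0.16 in R 4.3.3 (two-sided, Benjamini-Hochberg adjustment over 24185 genes, called under 0.05). The model held cell line and treatment. Lines were compared in the same fit, and the response of 1 line against the other 3 lines was tested as an interaction. The labels number the replicates by cell line, so treated and untreated libraries with the same number come from the same line, and line served as the block. Log2 ratios within a line used a prior count of 5. Alternatives were DESeq2 1.42.0, limma 3.58.1, other scalings and filters, and leaving out libraries or lines. The test scripts were checked on simulated data.

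The text names the 10 members. Of each other pathway list it draws on the 4 genes with the smallest unadjusted p for treatment and the 4 with the widest range over lines, and it names the 3 nearest tested protein-coding genes on each side and the 2 most similar genes. The members and lists were chosen with earlier results of these data known. Depth was 5559870 to 27524854 counts, and intervals cover counting error only. P-values measure the spread between these libraries, which may be technical within a line.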

Additional observations from a re-analysis of the deposited data

Results flagged for a closer look

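The response to PD-L1s of 6 genes of the other pathway lists differed between H820 and the other 3 lines in the edgeR interaction test. That test called 2.99% of all genes (724 of 24185). ERRFI1 differed by log2 1.70 (edgeR adjusted p = 4.3e-07). DUSP6 differed by log2 -1.03 (edgeR adjusted p = 0.006). MAP2K1 differed by log2 0.75 (edgeR adjusted p = 0.0414), and STAT3 by log2 0.72 (edgeR adjusted p = 0.0271). ADAM9 differed by log2 0.68 (edgeR adjusted p = 0.0317), and ADAM10 by log2 0.65 (edgeR adjusted p = 0.0401). ERRFI1 and DUSP6 stayed called under each alternative run for them. ADAM9, ADAM10, MAP2K1 and STAT3 each lost their call without TMM scaling, without H23, without H1975, and with a minimum count of 50. The response in H820 rests on 1 pair of libraries. The treated library of that pair was 4.28 times as deep as the untreated one, and the part of depth was not tested. Among the member levels and responses, 30 groups of 4 libraries or lines were searched for an outlying value, and 0 were flagged. With 4 values in a group the search can miss such a value, since EGF, high in H820 alone, was not flagged.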

How the results depend on the processing

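None of the 10 members was called for the treatment under any alternative run. The number of genes called for the treatment was 9, and it was 15 without TMM scaling, 98 with no filter, 3 with a minimum count of 50, 28 in H23 and H1975 alone, and 20 without H23, 5 without EBC1 and 19 without H1975. Without the replicate block of cell line it was 0 (edgeR), and 14 genes then had an unadjusted p under 0.05. In H820, 0 to 1 members differed in response on leaving out a line. The cause of these moves was not tested.

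Uncalled treatment estimates changed sign as follows, on the log2 scale. NRG1 was at -0.00476 without TMM scaling, NRG2 at 0.0114 with no filter and EPGN at 0.10 with DESeq2. In H23 and H1975 alone AREG was at 0.00704, NRG1 -0.179, ADAM15 -0.00834, ADAM10 -0.0107, ERRFI1 -0.0823, MAP2K1 -0.0449, MAPK3 -0.034 and STAT3 -0.0539, and DUSP6 was called there (0.43, edgeR adjusted p = 0.000428). For pairs of lines without TMM scaling, H820 over EBC1 was at 0.17 for EGFR and 0.18 for EREG, and H820 over H23 was at -0.22 for HBEGF. On leaving out a line, NRG2 ran from -0.06 to 0.0118, NRG1 from -0.11 to 0.21 (with -0.0539 without H820), AREG from -0.27 to 0.15, ADAM10 from -0.00838 to 0.19 and ERRFI1 from -0.0492 to 0.53. On leaving out a library, H820 over EBC1 ran from -0.17 to 0.0692 for EGFR and from -0.17 to 0.00916 for EREG, and H1975 over H820 from -0.0107 to 0.35 for ERBB2.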
